A study of Rattus norvegicus with 4 samples.

Results

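The protein kinase C (PKC) family was examined in cultured rat Schwann cells (SCs), the glia of peripheral nerves, through 8 genes: Prkca and Prkcb of the conventional class, Prkcd, Prkce, Prkch and Prkcq of the calcium-independent class, and Prkci and Prkcz of the atypical class. These are 8 of the 17949 rows of the deposited RNA-seq count table. The family was chosen by the higher counts of Prkcb in these samples, so the difference of Prkcb is given as a description without a p-value. The other 7 members are in the list as kin of Prkcb, and the list was drawn up with earlier results of these data known.

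Primary SCs from rat sciatic nerve were infected for 48 h with a lentivirus at 2 UFC per cell, a unit that the labels do not spell out. The Lenti-AS group (n = 2) received a virus that overexpresses the Egr2-AS, an antisense RNA to the Egr2 promoter, and the Lenti-GFP group (n = 2) received the control virus with a green fluorescent protein. Both groups grew in medium with 10% serum, 4 μM forskolin and 5 ng/ml heregulin, a neuregulin. The Egr2-AS was carried by a vector with a red fluorescent reporter, so reporter and Egr2-AS cannot be told apart in this design. The level of the Egr2-AS itself was not analysed here, since no row of the count table bears its name. The labels call the samples biological replicates without saying whether they came from separate animals or cultures, and the p-values measure the spread between these samples alone.

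PKCs are serine/threonine kinases that act when phospholipase C, switched on by receptors coupled to Gq proteins or by receptor tyrosine kinases, cleaves a membrane lipid into diacylglycerol and a messenger that releases calcium. Conventional PKCs need both calcium and diacylglycerol, calcium-independent PKCs need diacylglycerol alone, and atypical PKCs need neither and work in cell polarity with PAR-3 and PAR-6. The name calcium-independent is kept here for the class that needs diacylglycerol alone, although atypical PKCs need no calcium either. In SCs the neuregulin receptors ErbB2 and ErbB3 can feed this route, and PAR-3 marks the side of the cell that faces the axon when myelination begins.

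For 6 of the 8 members RefSeq promoter sequences of the GRCr8 assembly were at hand (not for Prkcb and Prkch), and those of Prkca and Prkcq are shown because these members lay on opposite sides of the controls in the results that follow. Each run holds the 250 bases before the annotated start, 5′ to 3′ on the strand of the gene, which is the minus strand for both. Capitals mark matches to GGGCGG, the GC box, on either strand.
Prkca promoter, GRCr8 chr10:93787328-93787577, minus strand: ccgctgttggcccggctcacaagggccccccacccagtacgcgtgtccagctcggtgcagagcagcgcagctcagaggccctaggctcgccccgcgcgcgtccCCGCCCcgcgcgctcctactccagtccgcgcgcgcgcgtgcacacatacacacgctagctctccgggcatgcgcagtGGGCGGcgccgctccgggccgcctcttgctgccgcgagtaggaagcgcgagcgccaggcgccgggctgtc
Prkcq promoter, GRCr8 chr17:72288509-72288758, minus strand: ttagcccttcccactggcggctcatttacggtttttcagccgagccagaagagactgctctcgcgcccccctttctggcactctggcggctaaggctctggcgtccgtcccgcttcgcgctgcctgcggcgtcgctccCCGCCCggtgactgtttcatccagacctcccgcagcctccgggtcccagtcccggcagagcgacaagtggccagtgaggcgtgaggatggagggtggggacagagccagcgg

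The window searched ran from 250 bases before to 50 bases after the start. GGGCGG was present on either strand in 6 of the 6 member promoters, against 33.1% of all 33469 promoters in the table. It occurred 2 times for Prkca, 1 time for Prkcq and 5 times each for Prkcd and Prkcz. The AP-1 motif TGANTCA and the YY1 motif GCCATNTT matched in 0 of the 6, where 7.33% and 6.96% of all promoters hold them. The EGR motif GCGNGGGCG matched in Prkcz alone, and 4.98% of all promoters hold it. In Prkcz this match lies within adjoining GC boxes, so the matches share letters. The GC content of the 6 windows ran from 66.3% to 73.3%. That of all promoters was not computed, so the share with GGGCGG is not read as a trait of the family. Matches in a window describe its letters and not binding.

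The 4 samples held between 74024323 and 96185890 counts, and all 8 members passed the filter of at least 10 counts in at least 2 samples, with no fewer than 186 counts in any sample. Levels are CPM, counts scaled to a common library size, on library sizes scaled by edgeR's TMM method, which do not correct for gene length, so levels of different genes are not compared. Changes are log2 fold changes of Lenti-AS against Lenti-GFP from edgeR's quasi-likelihood fit over 12446 genes, with the Benjamini-Hochberg adjusted p over all of them, and a gene was called at an adjusted p under 0.05 with a fold change of at least 1.3. The SC marker S100b was abundant, at 2027 to 2358 CPM across the samples. The libraries were not alike in every respect. Lenti-AS 1 had 162.8 CPM of Sox10, the SC lineage factor, against 61.3 to 77.1 CPM in the other samples, and 2131 CPM of the collagen gene Col1a1 against 290.1 to 840.5 CPM. Lenti-AS 2 had 1668 CPM of the globin Hbb against at most 3.69 CPM elsewhere. Neuronal markers summed to 191.9 and 200.8 CPM in Lenti-GFP and to 148.7 and 153.6 CPM in Lenti-AS, nearly all of it Nefl and Tubb3, with Rbfox3, Snap25 and Syt1 at 6 counts or fewer. Endothelial markers summed to 20.7 and 20.5 CPM against 15.9 and 15.1 CPM, nearly all of it Tek. The part of these differences in the results that follow was not tested.

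Of the 8 members, 2 were called higher in Lenti-AS, Prkca and Prkcb, and 0 were called lower by edgeR. Over all genes tested 1.31% were called higher and 0.667% lower. At an unadjusted edgeR p under 0.05, 2 members were higher and 1 lower, beside 12.5% and 9.37% of all genes. The Wald test of DESeq2, the tool of the study, called the same 2 members higher and 0 lower, with 3.92% of all genes called higher and 1.12% lower. Nothing is read from these shares, because Prkcb had a part in choosing the family.

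Prkcb, which encodes PKC beta, a conventional isoform best known from B cells and brain, had 735 and 761 counts in the Lenti-GFP samples and 1247 and 1286 counts in the Lenti-AS samples. These correspond to 7.87 and 8.03 CPM against 14.2 and 17.1 CPM. The groups did not overlap, with 6.20 CPM between them, 0.155 CPM between the controls and 2.88 CPM between the Lenti-AS replicates. Of all genes tested, 27.7% had both Lenti-AS samples above both controls. The group values were 7.95 ± 0.110 CPM (SD, n = 2) and 15.7 ± 2.04 CPM (SD, n = 2), a fitted fold change of 1.97 and a log2 fold change of 0.98 (standard error 0.12). Of the genes tested, 1.51% had a larger fitted rise. Because the rise of Prkcb chose the family, the gap and this rank restate that choice. The table counts reads per gene, so the splice forms of Prkcb, which differ at the carboxyl end of the kinase, were not told apart.

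Prkca encodes PKC alpha, the most widely expressed conventional isoform. It had 67.4 and 73.2 CPM in Lenti-GFP and 106.9 and 108.4 CPM in Lenti-AS. The Lenti-AS samples lay close together and above both Lenti-GFP samples, with a gap of 33.6 CPM between the groups. From 70.3 ± 4.13 CPM (SD, n = 2) Prkca rose to 107.6 ± 1.06 CPM (SD, n = 2), a fold change of 1.53 (log2 fold change 0.61, standard error 0.07, edgeR adjusted p = 0.0243). With DESeq2 the log2 fold change was also 0.61 (adjusted p = 7.98e-12). Without Lenti-GFP 1 the log2 fold change was 0.56, and without Lenti-GFP 2 it was 0.68. In these fits a single control sample is assumed to vary like the Lenti-AS samples. The call of Prkca was lost in both, as were the calls of all other genes higher in Lenti-AS, so this loss is not particular to Prkca.

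**Figure D1:**
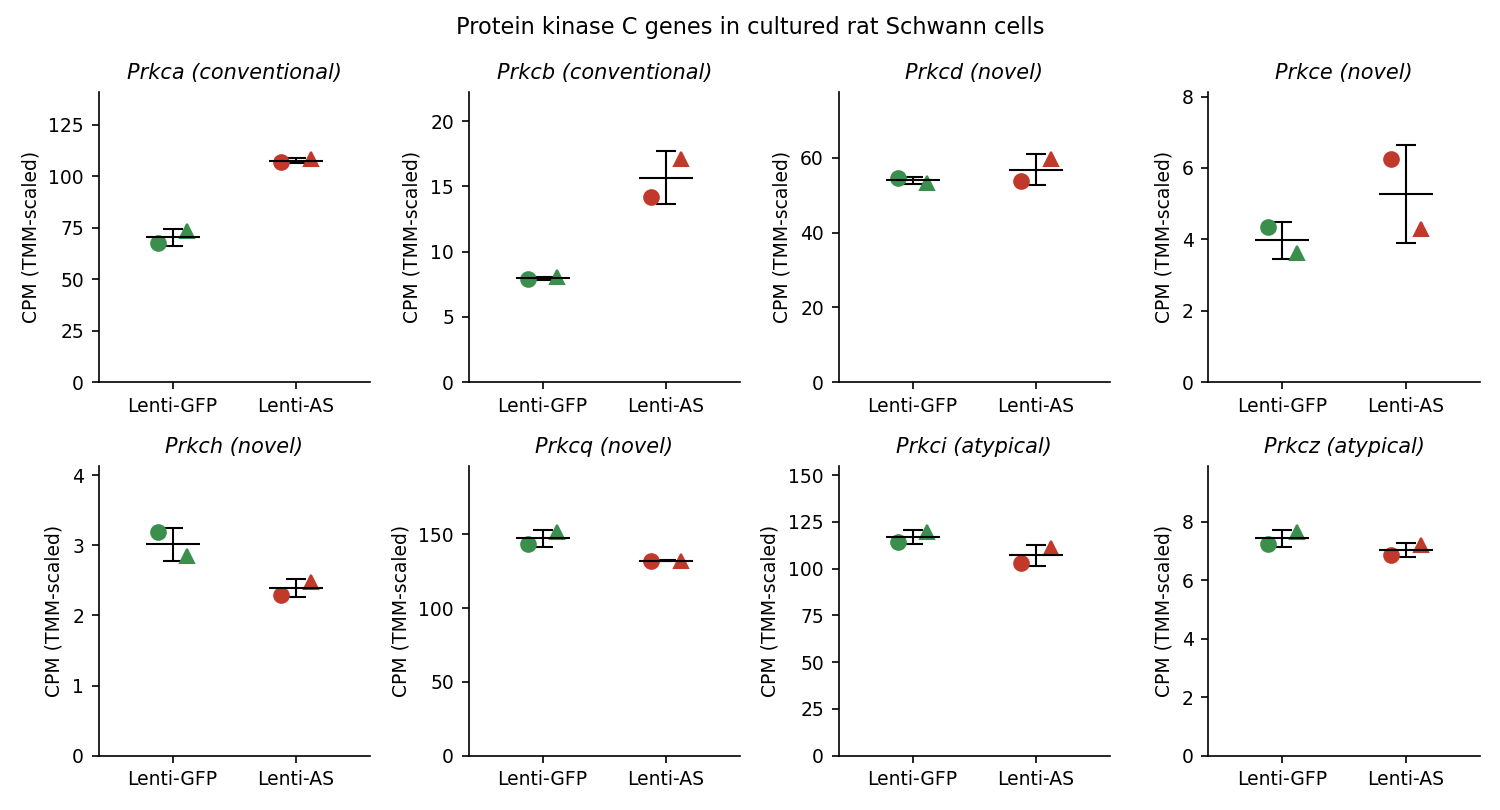
Level of each of the 8 PKC genes in CPM (TMM-scaled, linear axes from 0) in Lenti-GFP (green) and Lenti-AS (red) SCs, with circles for replicate 1, triangles for replicate 2, and bars for the mean ± SD (n = 2). The Lenti-AS points of Prkca (106.9 and 108.4 CPM) and Prkcb (14.2 and 17.1 CPM) lie above those of Lenti-GFP, while the groups overlap for Prkcd and Prkce.

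In the calcium-independent class 0 of 4 members were called, and whether the classes differ was not tested. Prkcd encodes PKC delta, which is known for roles in cell death and growth arrest. It had 54.7 and 53.4 CPM in Lenti-GFP and 53.9 and 59.7 CPM in Lenti-AS. The groups overlapped, with Lenti-AS 1 between the controls, and the log2 fold change was 0.07 (standard error 0.08, edgeR adjusted p = 0.623).

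Prkce encodes PKC epsilon, an isoform studied in pain-sensing neurons and heart. It had 4.34 and 3.61 CPM in Lenti-GFP and 6.25 and 4.30 CPM in Lenti-AS. Lenti-AS 1 was above the other samples and Lenti-AS 2 lay between the controls. The log2 fold change was 0.41 (standard error 0.22, edgeR adjusted p = 0.331). Without Lenti-AS 2 it was 0.65, and without Lenti-AS 1 it was 0.11. Sox10 and Col1a1 were also highest in Lenti-AS 1, where the 6 fibroblast markers summed to 2475 CPM against 413.5 to 998.7 CPM in the other samples although Thy1, Dcn and Lum stayed under 1 CPM, and their part in the value of Prkce was not tested.

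Prkcq encodes PKC theta, known mainly from T cells and skeletal muscle, and was counted 9938 to 14327 times per sample in these SCs. It had 143.2 and 151.2 CPM in Lenti-GFP and 132.2 and 132.2 CPM in Lenti-AS. Each Lenti-AS sample lay below each control by at least 11.0 CPM, and the log2 fold change was -0.15 (standard error 0.06, edgeR adjusted p = 0.187). Markers of T cells were near absent, as 7 of 7 stayed under 1 CPM in every sample and Cd3d and Cd2 had 0 counts. Their summed level was 1.22 to 1.66 CPM in Lenti-GFP and 1.53 to 1.80 CPM in Lenti-AS.

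Prkch, for PKC eta, an isoform of epithelia, had 3.18 and 2.85 CPM in Lenti-GFP and 2.29 and 2.47 CPM in Lenti-AS. Both Lenti-AS samples lay below both controls, with 0.374 CPM between the groups and 0.333 CPM between the controls. The log2 fold change was -0.34 (standard error 0.17, edgeR adjusted p = 0.312).

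In the atypical class, 0 of 2 members were called. Prkci, for PKC iota, a partner of PAR-3 and PAR-6, had 114.3 and 119.3 CPM in Lenti-GFP and 103.1 and 111.1 CPM in Lenti-AS. The groups did not overlap, but the 3.15 CPM between them was less than the 5.03 and 8.03 CPM between replicates. The log2 fold change was -0.12 (standard error 0.06, edgeR adjusted p = 0.316). Prkcz, for PKC zeta, had 7.22 and 7.63 CPM in Lenti-GFP and 6.87 and 7.21 CPM in Lenti-AS. The groups touched, with 0.00996 CPM between the nearest samples, and the log2 fold change was -0.08 (standard error 0.12, edgeR adjusted p = 0.734).

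In 2 of the 8 members both Lenti-AS samples were above both controls, and in 4 both were below. Among all genes tested this held for 27.7% and 27.2%. The median log2 fold change of the 8 members was -0.00264, beside 0.0071 for all genes tested.

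**Figure D2:**
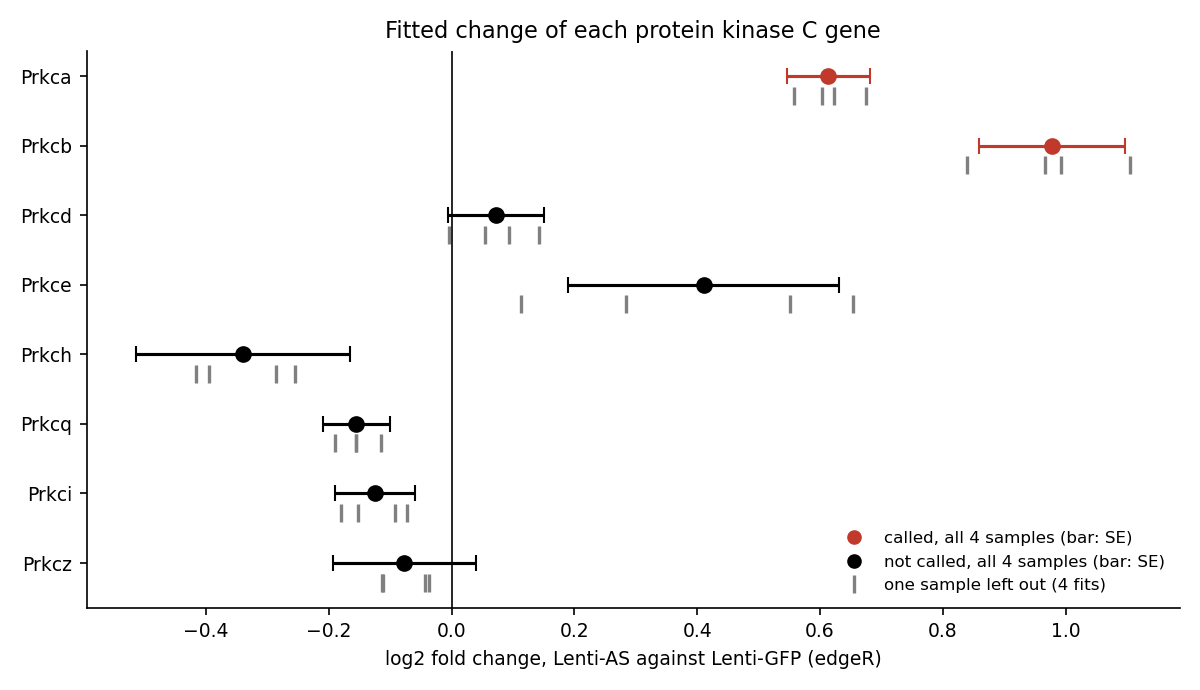
Fitted log2 fold change of each PKC gene with its standard error (points and bars, 4 samples), red for called genes, and grey ticks for the 4 fits that each leave out 1 sample. Prkca (0.61) and Prkcb (0.98) stay above 0.5 in every fit shown, which for Prkcb restates the rise that chose the family. Prkcd crosses 0 in 1 of these fits, and the ticks of Prkce spread from 0.11 to 0.65.

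The reads on the 8 genes together amounted to 402.2 and 419.2 CPM in Lenti-GFP and 425.7 and 442.5 CPM in Lenti-AS. Without Prkcb, which chose the family, the sums were 394.3 and 411.2 CPM in Lenti-GFP and 411.4 and 425.4 CPM in Lenti-AS, so that Lenti-GFP 2 and Lenti-AS 1 nearly coincided. Conventional genes took 75.3 and 81.3 CPM in Lenti-GFP and 121.1 and 125.5 CPM in Lenti-AS, calcium-independent genes 205.4 and 211.0 CPM against 194.6 and 198.7 CPM, and atypical genes 121.5 and 126.9 CPM against 110.0 and 118.3 CPM. These sums are ruled by the genes with most reads, and the conventional sum contains Prkcb.

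Ratios of counts within a sample do not depend on how libraries are scaled. For 100 counts of Prkcq there were 47.1 and 48.5 counts of Prkca in Lenti-GFP and 80.9 and 82.0 counts in Lenti-AS. This ratio, which leaves Prkcb out, differed more between the groups than between replicates, and it restates the levels of Prkca and Prkcq given above. For 100 counts of Prkcd there were 14.4 and 15.0 counts of Prkcb in Lenti-GFP and 26.4 and 28.7 counts in Lenti-AS. That ratio restates the higher counts of Prkcb and is given as a description. The ratio between the conventional genes was 11.7 and 11.0 counts of Prkcb for 100 of Prkca in Lenti-GFP and 13.3 and 15.8 counts in Lenti-AS. Within the calcium-independent class there were 136.4 and 126.7 counts of Prkce for 100 of Prkch in Lenti-GFP and 272.6 and 173.7 counts in Lenti-AS, so the groups did not overlap and the Lenti-AS replicates lay far apart. The atypical ratio, Prkcz for 100 of Prkci, stayed between 6.32 and 6.66 in all 4 samples. With 2 samples against 2, an exact permutation test of a ratio cannot give a two-sided p under 0.333, and none is given.

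**Figure D3:**
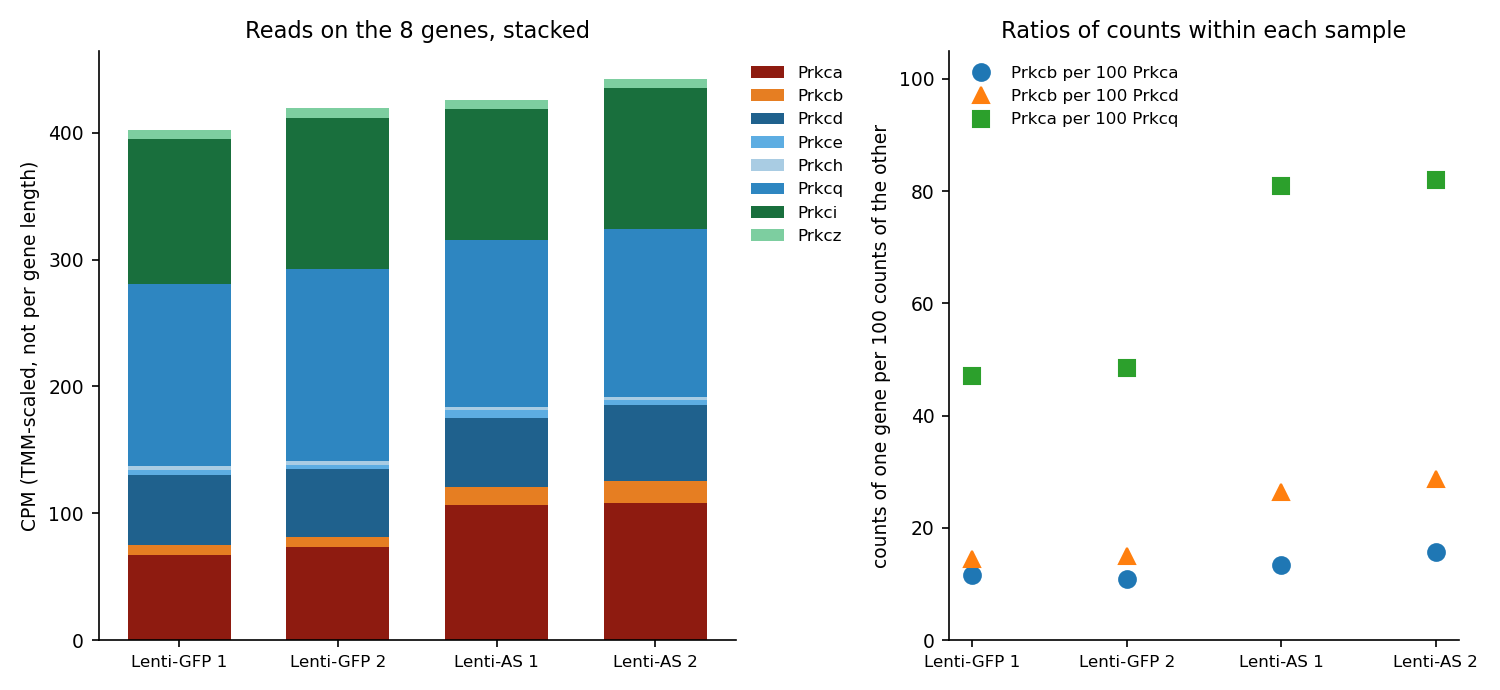
Left, stacked CPM of the 8 PKC genes in each sample (linear axis from 0, not per gene length); right, counts of one member per 100 counts of another in each sample. The stacks reach 402.2 to 442.5 CPM, and Prkca per 100 Prkcq goes from 47.1 and 48.5 in Lenti-GFP to 80.9 and 82.0 in Lenti-AS.

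The genes whose levels across the 4 samples lay closest to those of Prkcb were Usp54, Gpnmb, Crabp1, Lgi3 and Thbs4. Likeness was the Euclidean distance between log2(CPM + 1) values centred on each gene's mean, over 10139 genes with a mean of at least 100 counts, and the 5 distances ran from 0.117 for Usp54 to 0.196 for Thbs4. Usp54, a ubiquitin protease family member, had 21.6 and 20.6 CPM in Lenti-GFP and 38.2 and 41.4 CPM in Lenti-AS. Gpnmb, a transmembrane glycoprotein of lysosome-rich cells, had 99.6 and 101.2 CPM in Lenti-GFP and 183 and 194.1 CPM in Lenti-AS. Crabp1, which binds retinoic acid, had 10.1 and 9.46 CPM against 15.9 and 18.7 CPM. Lgi3, a secreted leucine-rich protein, had 0.761 and 0.886 CPM against 2.00 and 2.18 CPM. Thbs4, a matrix thrombospondin, had 0.857 and 1.03 CPM against 2.06 and 2.38 CPM. Adding 1 to CPM shrinks the changes of genes with levels this low. The fitted fold changes of Lgi3 and Thbs4 were 2.53 and 2.35, larger than the 1.97 of Prkcb. All 5 have both Lenti-AS samples above both controls, which the likeness to Prkcb brings with it, and 4 samples hold too few points to rank patterns finely.

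PKC beta is abundant in B cells and macrophages, so their markers were read beside Prkcb. The 4 B cell markers with a row were all under 1 CPM in every sample, with summed levels of 0.0321 and 0.0633 CPM in Lenti-GFP and 0.205 and 0.106 CPM in Lenti-AS. The 6 macrophage markers summed to 3.52 and 3.72 CPM in Lenti-GFP and to 4.27 and 4.52 CPM in Lenti-AS. Both sums were higher in Lenti-AS, but their members did not all go the same way. Cd79b had 2 and 4 counts in Lenti-GFP and 14 and 8 in Lenti-AS, while Ms4a1 had 1 and 2 against 0 and 0. Among the macrophage markers, Cd68 had 1.285 and 1.182 CPM in Lenti-GFP and 1.837 and 1.796 CPM in Lenti-AS. The mean levels of Cd14 and Ptprc were lower in Lenti-AS. Aif1 had 0 counts in 3 of the 4 samples, and Itgam and Ptprc stayed under 0.13 CPM, while Cd68 and Csf1r made most of the macrophage sum. The part of such cells in the level of Prkcb was not tested, and in bulk RNA a change in the number of cells of a type and a change of RNA per cell cannot be told apart.

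The genes around PKC were taken from 7 lists with 90 genes, of which 82 had a row and 74 were tested. Of these 74 genes, 0 were called higher and 2 lower in Lenti-AS by edgeR, beside 1.31% and 0.667% of all genes. At an unadjusted edgeR p under 0.05, 9 were higher and 12 lower (12.2% and 16.2%), beside 12.5% and 9.37% of all genes. DESeq2 called 2 higher and 3 lower, beside 3.92% and 1.12% of all genes. Without Lenti-AS 1 edgeR called 4 higher, beside 4.62% of all genes, and without Lenti-AS 2 it called 7 higher and 5 lower, beside 10.2% and 2.07%. Without Lenti-GFP 1 or without Lenti-GFP 2 it called 0 lower, beside 0.00816% of all genes in each fit. The median log2 fold change of the 74 genes was 0.0133, beside 0.0071 for all genes.

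Upstream, 14 of the 16 genes of Gq proteins and phospholipases C were tested and 0 were called. Plcd1, Plcg1 and Gnaq, the phospholipases and the G protein subunit with most reads, had log2 fold changes of -0.12, -0.10 and -0.02 (edgeR adjusted p = 0.333, 0.581 and 0.915). Gnaq had 66.3 and 65.4 CPM in Lenti-GFP and 60.6 and 69.3 CPM in Lenti-AS, and these overlapped. The list's median log2 fold change was 0.0831.

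Enzymes that consume or make diacylglycerol, 13 tested of 17, held 0 called genes by edgeR. Plpp1, a lipid phosphatase, had 260.3 and 260.1 CPM in Lenti-GFP and 246.3 and 244.8 CPM in Lenti-AS (log2 fold change -0.08, edgeR adjusted p = 0.371). Plpp3 and the diacylglycerol kinase Dgkq had log2 fold changes of 0.04 and 0.00486 (edgeR adjusted p = 0.832 and 0.991). Lpin1, a phosphatidate phosphatase that makes diacylglycerol, is named for its DESeq2 call after its values were seen. It had 9.72 and 10.2 CPM in Lenti-GFP and 16.7 and 13.8 CPM in Lenti-AS (log2 fold change 0.62, edgeR adjusted p = 0.0644, DESeq2 adjusted p = 0.00116).

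Among 19 tested partners that prime, anchor or position PKC, 1 was called lower and 0 higher. Akap5 encodes an anchoring protein that holds PKC, protein kinase A and calcineurin at the membrane. It had 32.7 and 36.5 CPM in Lenti-GFP and 20.7 and 22.2 CPM in Lenti-AS. Each Lenti-AS sample lay below each control by at least 10.6 CPM, and Akap5 fell by 0.69 on the log2 scale (standard error 0.08, edgeR adjusted p = 0.0252). Without Lenti-GFP 1 its log2 fold change was -0.77 and without Lenti-GFP 2 it was -0.61. Its call was lost in both fits, as were nearly all calls over all genes. Akap12, another anchor of PKC, was called lower by DESeq2 and not by edgeR's quasi-likelihood test, with 177.2 and 195.6 CPM in Lenti-GFP and 131.2 and 143.7 CPM in Lenti-AS (log2 fold change -0.44, edgeR adjusted p = 0.0506, DESeq2 adjusted p = 2.69e-05), and is likewise named after its values were seen. The abundant partners Hsp90ab1, Sqstm1 and Rack1, a chaperone, a scaffold of atypical PKC and the receptor for activated PKC, had log2 fold changes of -0.07, 0.01 and -0.09 (edgeR adjusted p = 0.447, 0.917 and 0.416).

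Of the PKC substrates, 11 of 14 were tested and 0 were called by edgeR. Marcks, the classical substrate that binds actin and membrane, had 3630 and 3763 CPM in Lenti-GFP and 3133 and 3168 CPM in Lenti-AS. Its samples did not overlap, but the change was small (log2 fold change -0.23, standard error 0.05, edgeR adjusted p = 0.0939), and DESeq2 gave an adjusted p = 0.00198 with a fold change below 1.3. The adducin Add1, which caps and cross-links the spectrin and actin skeleton, had 282.7 and 262.1 CPM in Lenti-GFP and 412.4 and 346.2 CPM in Lenti-AS (log2 fold change 0.48, edgeR adjusted p = 0.0674), and was called higher by DESeq2 (adjusted p = 7.68e-05). The related Add3 had 667.1 and 698.4 CPM against 604.9 and 602.3 CPM (log2 fold change -0.18, edgeR adjusted p = 0.139). The 2 adducins thus lay on opposite sides of their controls.

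The complex of CARD proteins with BCL10 and MALT1 links PKC to NF-kappaB, and 3 of its 6 listed genes had a row. Card10, the scaffold that PKC phosphorylates outside the immune system, had 26.7 and 26.5 CPM in Lenti-GFP and 14.6 and 17.3 CPM in Lenti-AS. The groups were 9.23 CPM apart, with 0.171 CPM between the controls, and Card10 fell by 0.74 on the log2 scale (standard error 0.10, edgeR adjusted p = 0.0305). Without Lenti-GFP 1 its log2 fold change was -0.73 and without Lenti-GFP 2 it was -0.74. Its call was lost in both fits, as were nearly all calls over all genes. Bcl10 had 79.1 and 81.2 CPM against 69.3 and 66.2 CPM (log2 fold change -0.24, edgeR adjusted p = 0.119). Card9 stayed under 1 CPM.

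The remaining lists held 0 called genes. Of the 6 PKN and PKD kinases, kin of PKC, Prkd3 and Pkn2 had log2 fold changes of -0.11 and -0.04 (edgeR adjusted p = 0.346 and 0.688). Of 8 tested genes for other diacylglycerol receptors, the GTPase-activating protein Chn2 and the vesicle-priming factors Unc13b and Unc13a had log2 fold changes of -0.17, -0.19 and 0.39 (edgeR adjusted p = 0.222, 0.261 and 0.122). A p that misses the threshold does not show that a gene was unchanged.

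**Figure D4:**
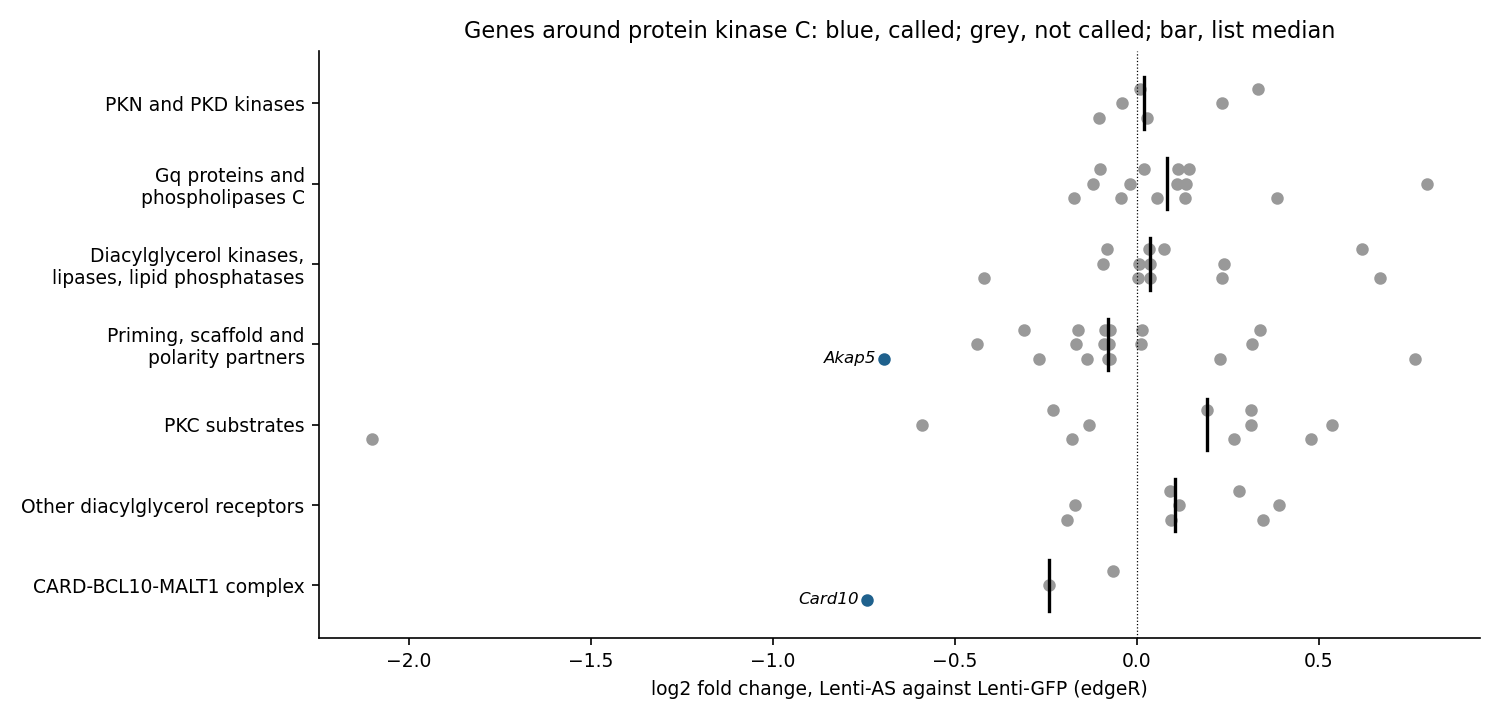
Log2 fold change of Lenti-AS against Lenti-GFP for the tested genes of the 7 lists around PKC, 1 point per gene, with black bars at list medians and blue points for called genes. Akap5 (-0.69) and Card10 (-0.74) are the 2 called genes; the point near -2.10 is Gap43, which had at most 25 counts in a sample and was not called.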

How the data were processed

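Total RNA of 4 SC samples was isolated by the authors and sequenced by GENEWIZ in paired-end runs. Reads were aligned to rn6 with hisat2 per the methods, while the submitters' processing notes name GSNAP, and were counted with featureCounts on RefSeq exons. The deposited values are raw counts per gene. Versions, the strand setting and the handling of multi-mapping reads are not given in the sources used here, so reads from an antisense partner cannot be told apart. The table has 17949 genes, after 1 row that repeats the header was dropped. No column was left without a sample.

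The fit used edgeR 4.0.16 under R 4.3.3 (TMM, glmQLFit, glmQLFTest, no replicate term) on the 12446 genes that reached 10 counts in 2 or more samples, with Benjamini-Hochberg adjustment over these. Standard errors come from the F statistic. Calls need an adjusted p under 0.05 and a fold change of at least 1.3. Alternatives were DESeq2 1.42.0, limma-voom (limma 3.58.1), the likelihood ratio test, the newer quasi-likelihood form, other scalings, filters and cut-offs, a replicate block and leaving out each sample. The fits were tested on simulated data. Replicates differed by more than sampling noise (chi-square per gene 32.4 in Lenti-GFP and 103 in Lenti-AS, where repeated sampling gives 1).

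The members and lists were chosen with earlier results of these data known. Named genes are the 8 members, the called genes and the 3 with the highest mean CPM in each list, the 2 highest of each marker list and the 5 most like Prkcb. Some genes that this rule names are not reported here. Lpin1 and Akap12, which DESeq2 called and the quasi-likelihood test did not, Gap43 and the other markers were named after their values were seen. Promoters are from RefSeq (GRCr8), matched by symbol for 6 of 8 members. Promoter positions are on GRCr8, whereas the counts were made on rn6.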

Additional observations from a re-analysis of the deposited data

How the results depend on the processing

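Across 14 other fits per gene, Prkca kept its direction, with log2 fold changes of 0.56 to 0.68. The log2 fold change of Prkcb ran from 0.84 to 1.10, which restates the rise that chose the family. Counts of members called higher include Prkcb, so nothing is read from them. The count of members called higher, 2 with all samples, was 0 with a replicate block, and 0 to 3 with 1 sample left out (0 without either control sample). Nothing in the labels ties replicate numbers to a shared preparation, and deviations from the group means were uncorrelated between equal numbers (-0.0176 over genes). The replicate block costs 1 residual degree of freedom. With it, Prkca had a log2 fold change of 0.61 (edgeR adjusted p = 0.0680). Akap5 had -0.69 (adjusted p = 0.0680) and Card10 had -0.74 (adjusted p = 0.0796). With the block, 3 genes of all tested were called higher and 14 lower. DESeq2 called 3.92% of all genes higher and 1.12% lower, and the likelihood ratio test called 3% and 1.18%. Without a low-count filter edgeR called 1.29% higher and 0.619% lower, beside 1.31% and 0.667% with the filter. The pathway counts that follow stand beside these shares. Of the pathway genes, 2 were called higher by DESeq2, 2 by the likelihood ratio test and 1 without a low-count filter, against 0 in edgeR, and 0 to 7 with 1 sample left out (7 without Lenti-AS 2). The count called lower, 2 in edgeR, was 4 by the likelihood ratio test, 0 with the replicate block and 0 to 5 with 1 sample left out (5 without Lenti-AS 2). Prkcd changed sign without Lenti-AS 2 (log2 fold change -0.00374, otherwise at most 0.14), and in that fit Prkci reached an edgeR adjusted p = 0.0298 at -0.18. The fits without Lenti-AS 2 and without Lenti-AS 1 called 1260 and 567 genes higher over all genes, against 163 with all samples, and those without a control sample called 0. The cause was not tested. Other results for single genes changed direction in no alternative run, and 6 of 98 list medians moved by more than the spread between replicates. Library totals moved the median of all genes to 0.039. The 2 samples per group limit the precision throughout.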
